A study of Mus musculus with 8 samples.

Results

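The transcripts described here encode enzymes that make nicotinamide adenine dinucleotide (NAD) or consume it, measured in liver of mice that lack 1 copy of Mtap. Of 10 genes chosen by name, 9 had at least 1 probe set whose annotation gave exactly 1 gene symbol, namely Nampt, Nmnat1, Nadsyn1, Qprt, Nadk, Sirt1, Sirt3, Sirt5 and Parp1, out of 18193 genes with such a probe set. They were covered by 19 of 45037 probe sets, which were kept apart. Cd38 was not analysed here, because no probe set in the annotation used carried its symbol alone. The study compared livers of 4 heterozygous males (MTAP+/-) with livers of 4 wild-type males (MTAP+/+), all C57BL/6 and between 92 and 101 days old, with 1 Affymetrix array per mouse and no treatment named in the labels. Mtap encodes methylthioadenosine phosphorylase, which recycles a by-product of polyamine synthesis to adenine and a methionine precursor. Values are RMA log2 signals (RMA is a background correction, quantile normalisation and summary over the probes of a probe set), so a difference of 1 is a 2-fold difference, and all differences are heterozygous minus wild-type. The labels do not describe the altered Mtap allele, and they do not say whether mice of a genotype shared a litter, a time of day or a batch, so p-values measure the spread between these 8 livers alone.

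NAD carries electrons in metabolism and is also split by signalling enzymes, which release nicotinamide. Liver makes NAD from tryptophan, in a route that passes through the product of Qprt, from nicotinic acid, and by salvage of nicotinamide, in which Nampt catalyses the rate-limiting step. Nmnat1, in the nucleus, joins the mononucleotide to an adenylyl group in all of these routes, Nadsyn1 amidates the acid form, and Nadk adds the phosphate that turns NAD into NADP. Sirtuins use NAD to remove acyl groups from proteins and poly(ADP-ribose) polymerases use it to modify proteins at damaged DNA. In liver the salvage step is known to follow the circadian clock, since the clock activators CLOCK and BMAL1 drive Nampt, and SIRT1 in turn acts on clock proteins.

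Promoter sequence is shown for Nampt, Sirt1 and Sirt5, the 3 members with the largest differences between genotypes in size. Each line gives the 250 bases before the RefSeq transcript start (build GRCm38.p6), read 5′ to 3′ on the strand of the gene. Capitals mark matches, on either strand, to CACGTG (the E-box, the element that CLOCK and BMAL1 recognise) or AGGTCA (a nuclear receptor half-site, the core of the element that REV-ERB and ROR receptors recognise, printed as TGACCT where it lies on the other strand).
Nampt (chr12:32820085-32820334, plus strand): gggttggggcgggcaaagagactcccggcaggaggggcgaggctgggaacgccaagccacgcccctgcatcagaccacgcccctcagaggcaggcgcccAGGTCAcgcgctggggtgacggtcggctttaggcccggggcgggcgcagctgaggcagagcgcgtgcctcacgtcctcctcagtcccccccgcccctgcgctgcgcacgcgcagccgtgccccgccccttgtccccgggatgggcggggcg
Sirt1 (chr10:63339036-63339285, minus strand): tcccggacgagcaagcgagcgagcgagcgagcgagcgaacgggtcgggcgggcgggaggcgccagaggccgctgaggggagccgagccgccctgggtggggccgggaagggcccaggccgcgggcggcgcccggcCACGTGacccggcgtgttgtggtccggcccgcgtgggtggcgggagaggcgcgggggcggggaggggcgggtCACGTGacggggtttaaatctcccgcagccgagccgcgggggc
Sirt5 (chr13:43365285-43365534, plus strand): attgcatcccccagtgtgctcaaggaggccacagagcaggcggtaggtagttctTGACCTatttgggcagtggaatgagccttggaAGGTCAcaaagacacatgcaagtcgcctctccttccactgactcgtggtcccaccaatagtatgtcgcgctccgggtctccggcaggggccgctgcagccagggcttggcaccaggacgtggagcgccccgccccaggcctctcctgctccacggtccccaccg
Counted from the transcript start, the Sirt1 window held CACGTG at positions -115 and -43, the Nampt window held AGGTCA at -151, and the Sirt5 window held it at -196 and -164. Among the 13 windows of the 10 chosen genes, 3 held CACGTG (1 each of Sirt1, Nadk and Parp1) and 2 held AGGTCA, against 6.02% and 14% of all 32851 windows of the same length. TTATGNAA, the element of the clock output factors DBP and TEF, was in 0 of the 13 windows and in 3.07% of all. CACGTG reads the same on both strands, and no match overlapped another. A match is a description of the letters in these windows and not of binding.

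The genotype labels were checked with Mtap, which lies on chromosome 4. Its 4 probe sets had differences from -1.63 to -0.80, with adjusted p from 0.00443 to 0.0414 (limma, Benjamini-Hochberg over all 45037 probe sets), and every heterozygous liver lay below every wild-type liver at each of them. Hepatocyte markers were bright in all livers, where the mean over 6 genes was 13.58 ± 0.11 for heterozygous mice (SD, n = 4) against 13.55 ± 0.10 for wild-type mice. Some livers stood apart from others of their genotype. A principal component analysis of the 45037 probe sets put wild-type replicate 4 (-23.56) beside heterozygous replicates 1, 3 and 4 (-24.91 to -23.43) on component 1, which held 28.3% of the variance, and the remaining livers at 3.58 or above. Component 2, with 22.0% of the variance, separated the genotypes (heterozygous -44.12 to -4.03, wild-type 11.25 to 29.47). Heterozygous replicate 2 was alone at the low end of component 2 (-44.12). Its Actb and Gapdh controls gave the lowest 3′ minus 5′ signal, a measure of RNA quality (0.713, with the others from 0.880 to 1.12). A lower value means less 3′ bias, so by this measure the RNA of that liver was not poorer than that of the others. Each liver was also left out in turn, and the values that move most for the NAD enzymes are given beside their differences.

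No NAD enzyme passed the threshold over all probe sets. Of the 19 probe sets 0 had an adjusted p under 0.05 by limma, where 0.0355% of all probe sets did, and the lowest adjusted p was 0.248. At an unadjusted p under 0.05 there were 6, or 31.6%, beside 8.41% of all probe sets. These were 1 of Nampt on the higher side (4.56% of all) and, on the lower side (3.85% of all), both of Nmnat1, 2 of Sirt5 and 1 of Parp1. Probe sets of the same gene varied together (Pearson r = 0.94 for those 2 of Sirt5 and 0.85 for Nmnat1). With only the brightest probe set of each of the 9 genes the count was 2. The share of all genes in that fit was not counted, so the 8.41% is not its background. Of the 19, 17 were above the median signal of all probe sets. The members were chosen with earlier results of these data known, so the share is a description and not a test. At 2 probe sets, both of Sirt5, every heterozygous liver lay below every wild-type liver, which held for 2.22% of all probe sets, and at 0 did every heterozygous liver lie above, which held for 2.12% (4.35% in either direction). The median difference was -0.06 over the 19 and -0.01 over all probe sets. The plot of signals in each mouse shows the 8 values behind every difference given below.

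**Figure D1:**
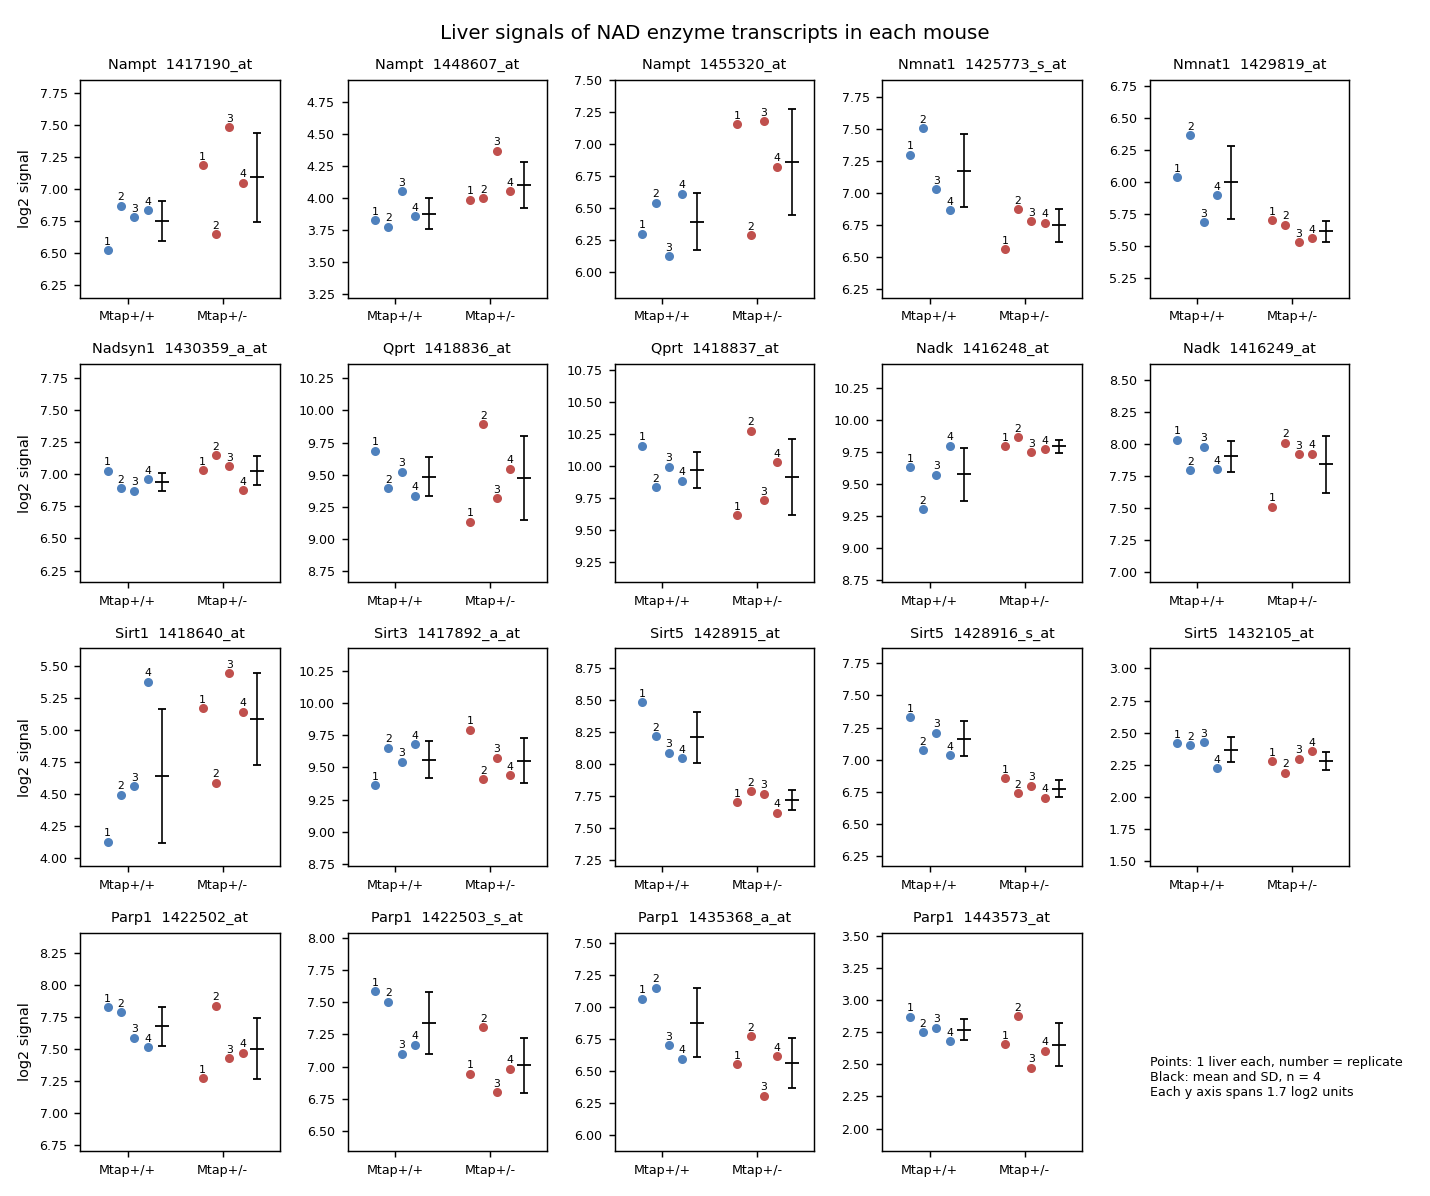
Log2 signal of each of the 19 probe sets in 4 wild-type (blue) and 4 heterozygous (red) livers, 1 point per mouse with its replicate number, with mean and SD (n = 4) in black. All y axes span the same log2 range, and at 2 probe sets of Sirt5 every red point lies below every blue point.

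Nampt, the nicotinamide phosphoribosyltransferase of the salvage route (chromosome 12), had positive differences at its 3 probe sets. Probe set 1455320_at read 7.16, 6.29, 7.18 and 6.82 in heterozygous replicates 1 to 4 and 6.30, 6.54, 6.13 and 6.61 in wild-type replicates 1 to 4. Heterozygous replicates 1, 3 and 4 were above all wild-type livers and heterozygous replicate 2 was below 3 of them, so the groups overlapped. The means were 6.86 ± 0.41 (SD, n = 4) and 6.40 ± 0.22, a log2 difference of 0.47 ± 0.19 (SE), or 138% of the wild-type level with a 95% interval from 103% to 186% (unadjusted p = 0.0361, adjusted p = 0.558, limma). Probe set 1417190_at placed the livers in nearly the same way, with 7.19, 6.65, 7.48 and 7.05 in heterozygous and 6.53, 6.87, 6.78 and 6.84 in wild-type livers (0.34 ± 0.16, SE, adjusted p = 0.625). The third, 1448607_at, was dim, at 3.78 to 4.37 over the 8 livers where the median over all probe sets was 3.94, and had a difference of 0.22 ± 0.11 (SE). Without heterozygous replicate 2 the differences were 0.66 at 1455320_at and 0.49 at 1417190_at, the groups no longer overlapped at either, and the adjusted p was 0.187 and 0.248 (limma). Without heterozygous replicate 3 the differences were smaller, 0.36 at 1455320_at, 0.21 at 1417190_at and 0.13 at 1448607_at. The unadjusted p at 1455320_at was between 0.0576 and 0.107 when heterozygous replicate 1, 3 or 4 or wild-type replicate 1 or 3 was left out.

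Nmnat1, the nuclear adenylyltransferase (chromosome 4, as Mtap), had negative differences at both probe sets. Probe set 1425773_s_at read 6.56, 6.87, 6.78 and 6.77 in heterozygous and 7.30, 7.50, 7.03 and 6.86 in wild-type livers. The groups met at 1 point, where wild-type replicate 4 and heterozygous replicate 2 were nearly level, and otherwise all wild-type livers were higher. The means were 6.75 ± 0.13 (SD, n = 4) and 7.17 ± 0.28, a log2 difference of -0.43 ± 0.14 (SE) or 74.4% of the wild-type level (95% interval 59.9% to 92.5%, unadjusted p = 0.0126, adjusted p = 0.440, limma). Probe set 1429819_at read 5.70, 5.67, 5.53 and 5.56 in heterozygous and 6.03, 6.36, 5.69 and 5.90 in wild-type livers, a difference of -0.38 ± 0.14 (SE, adjusted p = 0.485). There wild-type replicate 3 was the liver that reached into the heterozygous range. The spread at 1429819_at was larger among wild-type livers (SD 0.28) than among heterozygous livers (SD 0.083). With 1 liver left out the differences ranged from -0.53 to -0.32 at 1425773_s_at and from -0.49 to -0.26 at 1429819_at. The groups did not overlap at 1425773_s_at without wild-type replicate 4 (-0.53, adjusted p = 0.235, limma) or without heterozygous replicate 2 (-0.47, adjusted p = 0.311), and both ranges were closest to 0 without wild-type replicate 2.

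The other synthesis enzymes had small differences or probe sets that did not go together. Nadsyn1, the glutamine-dependent NAD synthetase (chromosome 7), lay between 6.87 and 7.15 in all 8 livers, with a difference of 0.09 ± 0.09 (SE, 95% interval -0.12 to 0.30) that ranged from 0.05 to 0.14 with 1 liver left out. Qprt, the quinolinate phosphoribosyltransferase (chromosome 7), had differences of -0.01 ± 0.16 and -0.06 ± 0.15 (SE) at its 2 probe sets. Its heterozygous livers spread widely at 1418836_at, with 9.13, 9.89, 9.32 and 9.54 around the wild-type values of 9.69, 9.40, 9.52 and 9.34. Heterozygous replicate 2 was the highest of the 8 for Qprt and heterozygous replicate 1 the lowest at both probe sets. The 95% intervals for Qprt were -0.36 to 0.34 at 1418836_at and -0.38 to 0.27 at 1418837_at.

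Nadk, the cytosolic NAD kinase (chromosome 4), gave differences of opposite sign at its 2 probe sets. At 1416248_at the heterozygous livers read 9.79, 9.87, 9.75 and 9.77 and the wild-type livers 9.63, 9.30, 9.57 and 9.80. Wild-type replicate 4 was as high as the heterozygous livers and the other wild-type livers were below them all. The difference was 0.22 ± 0.11 (SE, adjusted p = 0.651, limma), and ranged from 0.13 without wild-type replicate 2 (adjusted p = 0.775) to 0.29 without wild-type replicate 4 (adjusted p = 0.415). At 1416249_at heterozygous replicate 1 was the lowest of the 8 (7.51), the others lay between 7.79 and 8.03, and the difference was -0.06 ± 0.12 (SE).

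**Figure D2:**
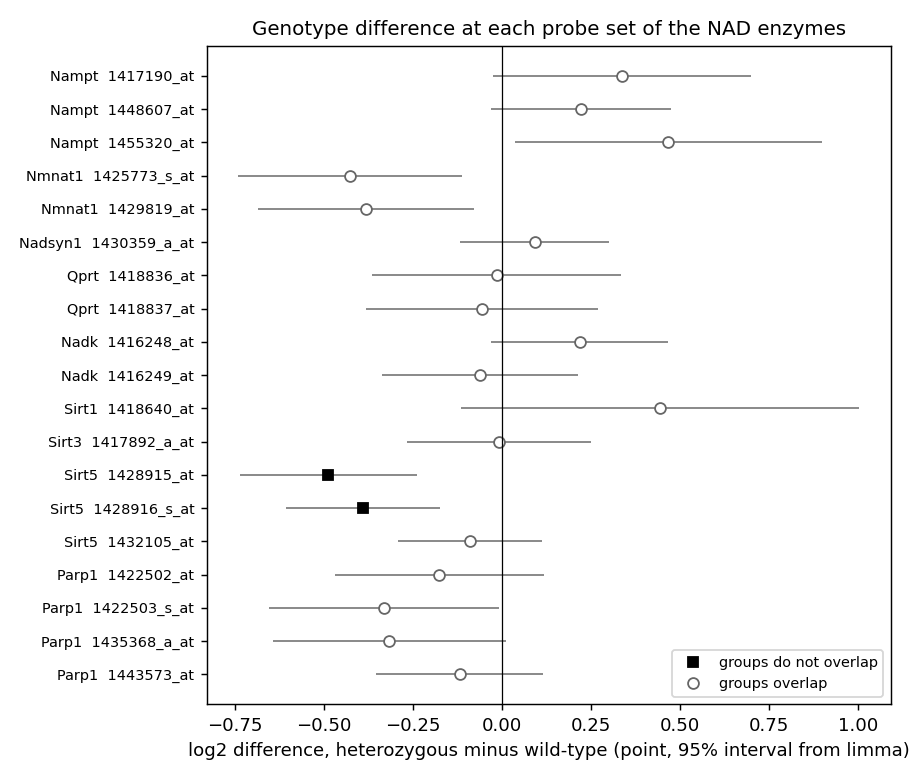
Log2 difference between heterozygous and wild-type liver at each of the 19 probe sets (point) with the 95% interval from the limma fit (line). Filled squares mark the 2 Sirt5 probe sets whose groups do not overlap, at -0.49 and -0.39, and the 3 Nampt probe sets lie between 0.22 and 0.47.

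Among the NAD-using enzymes Sirt5, a mitochondrial sirtuin known for removing succinyl, malonyl and glutaryl groups from proteins (chromosome 13), was the member with the smallest p. Probe set 1428915_at read 7.70, 7.78, 7.77 and 7.62 in heterozygous and 8.48, 8.22, 8.09 and 8.04 in wild-type livers. The heterozygous livers were close together and all lay below the lowest wild-type liver. The means were 7.72 ± 0.07 (SD, n = 4) and 8.21 ± 0.20, a log2 difference of -0.49 ± 0.11 (SE), or 71.3% of the wild-type level (95% interval 60.0% to 84.7%, unadjusted p = 0.00128, adjusted p = 0.248, limma). Probe set 1428916_s_at read 6.85, 6.74, 6.80 and 6.70 in heterozygous and 7.33, 7.07, 7.21 and 7.03 in wild-type livers, a difference of -0.39 ± 0.10 (SE, adjusted p = 0.304), again with no overlap. The exact two-sided permutation p over 70 assignments was 0.0286 for each of these 2 probe sets, the lowest value that 4 livers against 4 allow. Every probe set without overlap has this value (4.35% of all in either direction), so it restates the lack of overlap and is no further test. The third probe set, 1432105_at, was near the lowest signals of the arrays (2.19 to 2.43) and had a difference of -0.09 ± 0.09 (SE), from -0.14 to -0.06 with 1 liver left out. When each liver was left out in turn, the difference at 1428915_at stayed between -0.54 and -0.40 and that at 1428916_s_at between -0.43 and -0.33, with no adjusted p under 0.05.

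Sirt1, the nuclear sirtuin that deacetylates transcription factors and histones (chromosome 10), had the widest range of the 9 measured members over the 8 livers. Its sole probe set read 5.17, 4.59, 5.44 and 5.14 in heterozygous and 4.13, 4.49, 4.56 and 5.37 in wild-type livers. The high livers were heterozygous replicates 1, 3 and 4 and wild-type replicate 4, the same livers that scored low on the first principal component, to which Sirt1 itself contributes. The means were 5.08 ± 0.36 (SD, n = 4) and 4.64 ± 0.53, a log2 difference of 0.44 ± 0.25 (SE, 95% interval -0.11 to 1.004, adjusted p = 0.683, limma). Without wild-type replicate 4 it was 0.69, with no overlap between the groups and an adjusted p of 0.278, and without heterozygous replicate 2 it was 0.61 (adjusted p = 0.404). Without wild-type replicate 1, the lowest of the 8, it was 0.27 (adjusted p = 0.915), and without heterozygous replicate 3 it was 0.33 (adjusted p = 0.848). Sirt3, the main deacetylase of mitochondria (chromosome 7), lay between 9.36 and 9.79 in all livers, with a difference of -0.01 ± 0.12 (SE, 95% interval -0.27 to 0.25).

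Parp1, the polymerase that builds poly(ADP-ribose) chains at DNA breaks (chromosome 1), had negative differences at its 4 probe sets. Probe set 1422503_s_at read 6.94, 7.31, 6.80 and 6.98 in heterozygous and 7.59, 7.51, 7.10 and 7.17 in wild-type livers. Heterozygous replicate 2 reached into the wild-type range and the other heterozygous livers lay below it. The means were 7.01 ± 0.21 (SD, n = 4) and 7.34 ± 0.24, a log2 difference of -0.33 ± 0.15 (SE), or 79.5% of the wild-type level (95% interval 63.6% to 99.4%, unadjusted p = 0.0451, adjusted p = 0.581, limma). The differences were -0.32 ± 0.15 (SE) at 1435368_a_at, -0.18 ± 0.13 at 1422502_at and -0.12 ± 0.11 at 1443573_at, the last of which was dim (2.48 to 2.88). At 1422502_at the 4 lowest livers were heterozygous replicates 1, 3 and 4 and wild-type replicate 4 (7.27, 7.43, 7.47 and 7.51), and the others lay between 7.59 and 7.84. These were the livers in which Sirt1 was highest. Without heterozygous replicate 2 the difference at 1422503_s_at was -0.43 (adjusted p = 0.304) and that at 1422502_at was -0.29 (adjusted p = 0.409). Other livers moved the differences towards 0 when left out. The difference at 1422502_at was -0.10 without heterozygous replicate 1, that at 1422503_s_at was -0.25 without wild-type replicate 1 (unadjusted p = 0.128, adjusted p = 0.874), and that at 1443573_at ranged from -0.19 without heterozygous replicate 2 to -0.06 without heterozygous replicate 3.

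Leaving out either of these livers changed the counts. Without heterozygous replicate 2, 10 of the 19 probe sets had an unadjusted limma p under 0.05 beside 10.8% of all probe sets, and the genotypes did not overlap at 8 beside 10.0% of all. The 8 were 2 of Nampt, 1 of Nmnat1, 2 of Sirt5 and 3 of Parp1. Without wild-type replicate 4, 9 had an unadjusted limma p under 0.05 beside 10.0% of all, and the genotypes did not overlap at 6 beside 8.53%, namely 1 each of Nmnat1, Nadk and Sirt1 and all 3 of Sirt5. In neither case did a member reach an adjusted p under 0.05, as the plot of differences under other choices of livers shows.

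**Figure D3:**
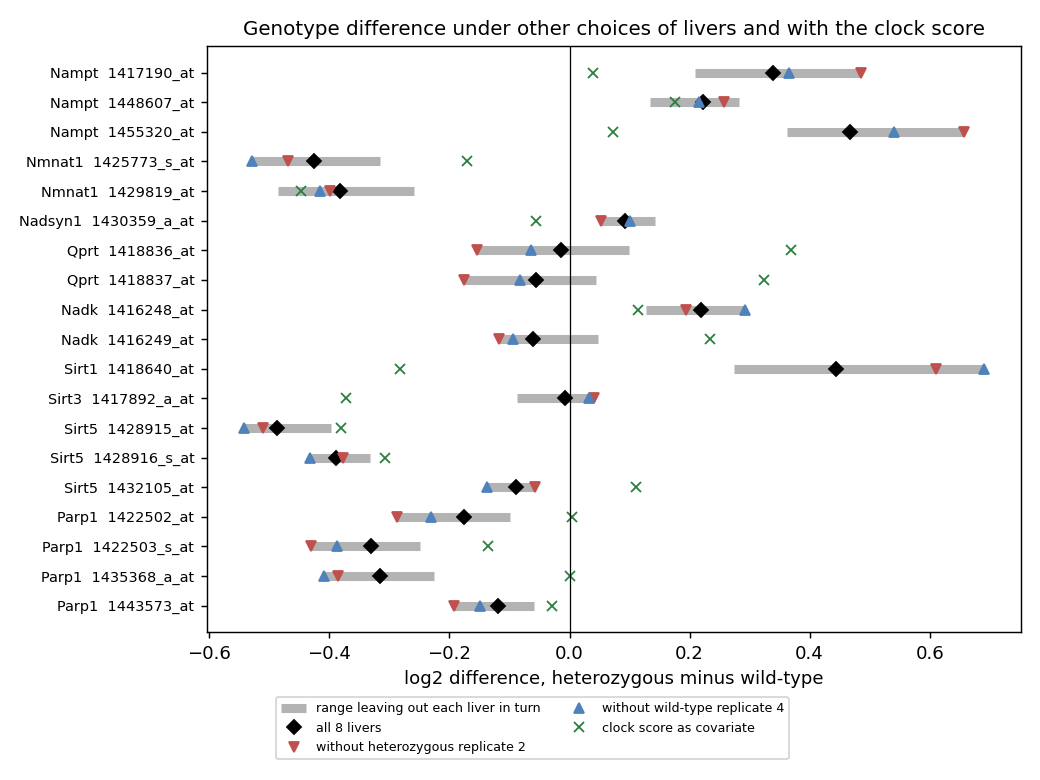
Log2 difference between heterozygous and wild-type liver at each of the 19 probe sets with all 8 livers (diamond), without heterozygous replicate 2 (red triangle), without wild-type replicate 4 (blue triangle) and with the clock score as a covariate (green cross), over the range found when each liver was left out in turn (grey bar). The grey bars of Nampt, Nmnat1, Sirt1, Sirt5 and Parp1 stay on 1 side of 0, while crosses for Sirt1, 1 Sirt5 and 2 Parp1 probe sets lie on the other side.

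Clock genes, to which the salvage step is tied, reached larger differences than the NAD enzymes, though none of their 28 probe sets passed the adjusted threshold. Of the 28, 12 (42.9%, beside 8.41% of all probe sets) had an unadjusted limma p under 0.05. The genotypes did not overlap at 7 of them (25%, beside 4.35% of all). Arntl, which encodes BMAL1, read 4.82, 5.56, 4.98 and 5.93 in heterozygous and 7.18, 7.05, 6.82 and 6.28 in wild-type livers at its brighter probe set, a difference of -1.51 ± 0.26 (SE, adjusted p = 0.127, limma). Dbp, a direct target of CLOCK and BMAL1, had its 3 highest signals in heterozygous replicates 1, 2 and 3 (8.97 to 9.34) and its lowest in wild-type replicate 1 (5.04) at 1418174_at. Its groups overlapped there, with 7.06 in heterozygous replicate 4 and 7.16 in wild-type replicate 4. Other clock genes differed less. Nr1d1 had a difference of 0.13 ± 0.16 (SE), and those of the Clock probe sets lay between -0.27 and 0.09, all with overlap. A clock score was taken as the mean of Dbp, Tef, Per1, Per2, Per3, Nr1d1 and Nr1d2 minus the mean of Arntl, Npas2, Clock, Nfil3 and Cry1. It was 2.36, 2.18, 2.32 and 1.22 in heterozygous and -0.01, 0.51, 0.29 and 0.98 in wild-type livers, with no overlap (exact permutation p = 0.0286, n = 4 per group). That p follows from the lack of overlap. The clock genes were listed with earlier results of these data known, so the score is a description and not a test.

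Set beside this score, Nampt at 1455320_at was highest in heterozygous replicates 1 and 3, the livers of the 2 highest scores, next in heterozygous replicate 4 and wild-type replicate 4, and lowest in wild-type replicate 3. Heterozygous replicate 2 went against this order, with a score of 2.18 and the second lowest Nampt signal. Sirt1 was low in that liver too. Sirt5 at 1428915_at was highest (8.48) in wild-type replicate 1, the liver of the lowest score, and lowest (7.62) in heterozygous replicate 4. That liver had the lowest score of the heterozygous livers (1.22). Heterozygous replicates 1, 2 and 3 had higher scores and higher Sirt5 signals (7.70, 7.78 and 7.77), so Sirt5 did not fall with the score within this genotype.

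With the clock score as a covariate 0 of the 19 probe sets had an unadjusted limma p under 0.05. The share of all probe sets under that fit was not counted. Over all probe sets the number with an adjusted p under 0.05 was 0, against 16 without the covariate. With the covariate the genotype difference was 0.07 (SE 0.42, against 0.19 without it) for Nampt at 1455320_at, -0.28 (SE 0.51) for Sirt1, -0.38 (SE 0.25) for Sirt5 at 1428915_at and -0.14 (SE 0.32) for Parp1 at 1422503_s_at. With its sign kept, the difference was larger in size than without the covariate for Nmnat1 at 1429819_at (-0.45, SE 0.31) and for Sirt3 (-0.37, SE 0.23). With its sign turned, it was larger in size for Qprt (0.37 at 1418836_at and 0.32 at 1418837_at), Nadk at 1416249_at (0.23) and Sirt5 at 1432105_at (0.11). The score itself separates the genotypes, so genotype and clock state cannot be told apart in these 8 livers.

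**Figure D4:**
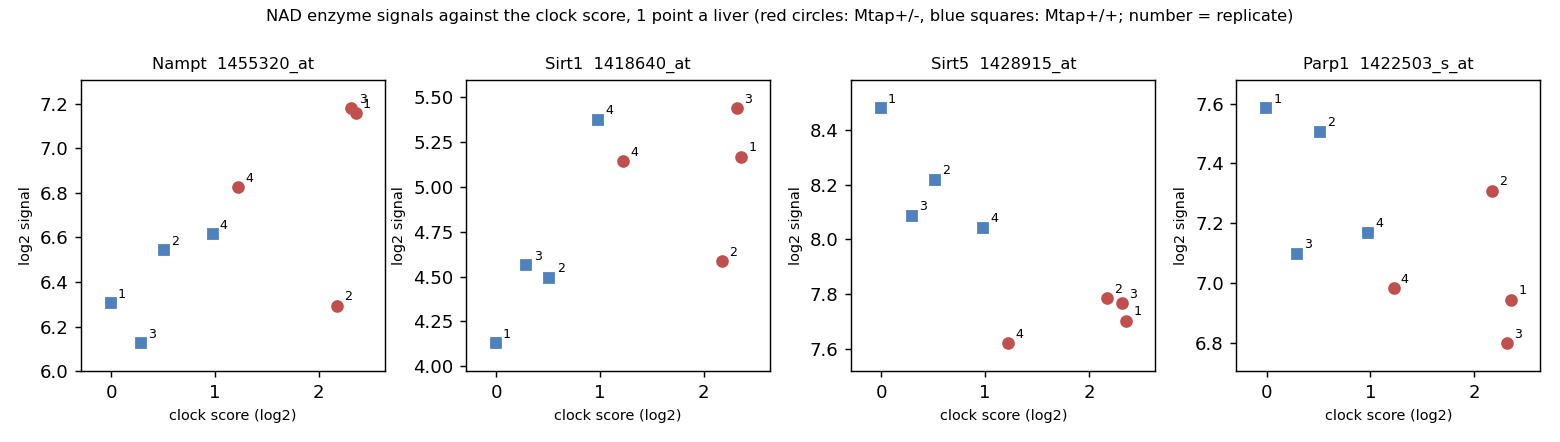
Log2 signal of Nampt, Sirt1, Sirt5 and Parp1 (1 probe set each) against the clock score in 8 livers, with red circles for heterozygous and blue squares for wild-type mice and replicate numbers beside the points. Heterozygous replicate 2 lies far below the other high-score livers for Nampt and Sirt1, and all 4 red points lie below all blue points for Sirt5.

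Markers of other cells were compared because liver tissue was measured whole, so fewer cells of a type and less RNA per cell cannot be told apart. Over the macrophage and Kupffer cell list (7 of 7 markers measured) the mean ranged from 7.995 to 8.75 in heterozygous and from 7.79 to 8.10 in wild-type livers (exact permutation p = 0.229, n = 4 per group), highest in heterozygous replicate 2. Members of this list went different ways. Mpeg1 (0.65 ± 0.16, SE, unadjusted p = 0.00223, adjusted p = 0.296, limma) and Adgre1 (0.78 ± 0.31, unadjusted p = 0.0299, adjusted p = 0.533) were higher in every heterozygous than in every wild-type liver. That order held for 2.12% of all probe sets. Cd68 had a difference of 0.54 ± 0.21 (unadjusted p = 0.0272, adjusted p = 0.520) with overlap. Csf1r had differences of -0.02, -0.02 and -0.10 at its probe sets, with overlap. Those of Clec4f (-0.27), Vsig4 (0.05) and Marco (0.72 and 0.56) also came with overlap. The Kupffer cell markers Clec4f and Vsig4 were lowest in heterozygous replicate 2 (7.06 and 8.20), where the other livers lay at 8.85 or above and 9.02 or above, and Marco was highest there (9.97 at 1449498_at). Neutrophil markers (2 of 3 measured) ranged from 4.67 to 7.05 and from 4.47 to 5.08, B cell markers (3 of 4 measured) from 4.30 to 4.79 and from 4.16 to 4.46, and T and NK cell markers (4 of 4 measured) from 4.19 to 4.28 and from 4.10 to 4.21. The last 2 lists lay near the median signal of the arrays. Their differences were 0.31 and 0.09, each with an exact permutation p of 0.0571 (n = 4 per group), or 0.229 adjusted over the 8 lists. Nkg7 was higher in every heterozygous than in every wild-type liver (0.32 ± 0.10, SE, unadjusted p = 0.00844, adjusted p = 0.409, limma). The other T and NK cell markers overlapped. Their differences were 0.01 for Cd3e, 0.14 for Cd3g and from -0.11 to 0.04 over the Cd8a probe sets. Biliary markers ranged from 4.07 to 4.28 in heterozygous and from 4.11 to 4.47 in wild-type livers, stellate markers from 7.41 to 7.53 and from 7.32 to 7.61, and endothelial markers from 5.84 to 6.27 and from 6.05 to 6.10. The part of other cells in the differences of Nampt, Sirt5 or Parp1 was not tested.

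Of 45 other genes of NAD metabolism, 43 were measured with 80 probe sets. None of the 80 passed an adjusted p of 0.05 by limma, 6 (7.5%, beside 8.41% of all probe sets) had an unadjusted p under 0.05, and the genotypes did not overlap at 2 (2.5%, beside 4.35% of all), so neither share was above that of all probe sets. The median difference was -0.02. Slc25a51, the carrier that takes NAD into mitochondria (chromosome 4), had the smallest p. Its probe set 1433816_at read 8.998, 8.95, 9.10 and 9.09 in heterozygous and 8.49, 8.46, 8.50 and 8.70 in wild-type livers, so that all heterozygous livers were higher (0.50 ± 0.09, SE, adjusted p = 0.155). Its other probe sets had differences of 0.46 ± 0.51 and 0.16 ± 0.14 (SE), with overlap.

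The other probe sets of this list with an unadjusted p under 0.05 belonged to Tdo2, Tnks2 and Macrod1. Tdo2, the liver enzyme that opens the tryptophan ring, had differences of 0.59 ± 0.24, 0.47 ± 0.20 and 0.22 ± 0.13 (SE), and wild-type replicates 1 and 2 were the 2 lowest livers at all 3 probe sets. Tnks2, a tankyrase, had differences of 0.67 ± 0.22 and 0.50 ± 0.16 (SE) at its bright probe sets and -0.05 ± 0.11 at a dim one. Macrod1, which removes ADP-ribose from proteins, read 8.43, 8.63, 8.43 and 8.0001 in heterozygous and 9.08, 8.88, 8.73 and 8.67 in wild-type livers, with no overlap (-0.47 ± 0.15, SE, adjusted p = 0.411). The 4 other sirtuins all had negative differences, Sirt2 of -0.18, Sirt4 of -0.21, Sirt6 of -0.11 and Sirt7 of -0.29, each with overlap and adjusted p from 0.666 to 0.848. The 14 probe sets of further salvage and riboside genes had 0 with an unadjusted p under 0.05 by limma and differences from -0.21 to 0.20.

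**Figure D5:**
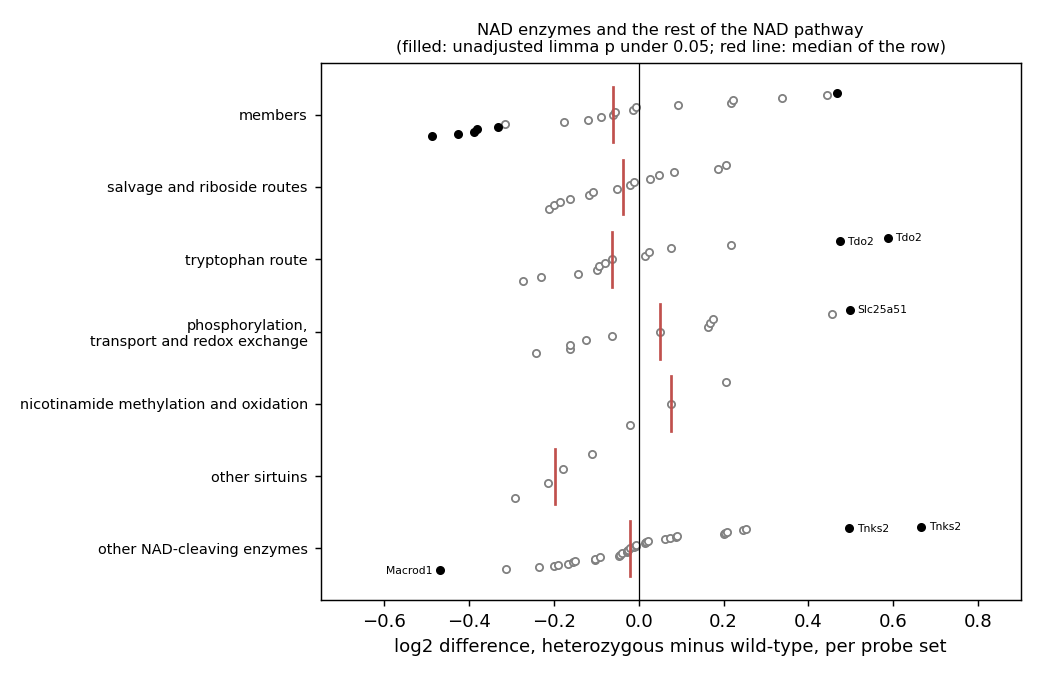
Log2 difference between heterozygous and wild-type liver for each probe set of the 9 NAD enzymes (top row, 19 probe sets) and of 43 other genes of NAD metabolism by role (80 probe sets), with filled points for an unadjusted limma p under 0.05 and a red line at the median of each row. The top row holds 6 filled points, 5 of them below 0, and the other rows hold 6 together.

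The probe sets most like the brightest Nampt probe set (1417190_at) over the 8 arrays, among 14411 of other genes with a mean signal above 5, were those of Abhd13 (Pearson r = 0.97), Ascc3 (0.96), Nbeal1 (0.96 and 0.95) and Stk38l (0.96). For Sirt5 (1428915_at) they were Prep (0.99), Plekha8 (0.98), Aldh16a1 (0.97), Ecd (0.97) and Idh3a (0.97), the last a subunit of the NAD-using isocitrate dehydrogenase of mitochondria. These values describe likeness over 8 arrays that share a genotype split and an array structure, and were picked as the highest of many.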

How the data were processed

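Per the labels' protocols, TRIzol-extracted liver RNA of 8 mice received a biotin label for Affymetrix arrays. The authors deposited 1 log2 value for each probe set and mouse, and the submitters' processing notes name RMA (version and settings not given in the sources used here). Values from 1.64 to 14.7 with array medians of 3.91 to 3.97 show the log2 scale. RMA compresses differences of dim probe sets, detection calls were not used, and the number of arrays limits the precision.

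The 64 control probe sets were left out. The remaining 45037 were fitted with limma 3.58.1 (lmFit, eBayes, genotype as sole term, two-sided) in R 4.3.3, and p-values were adjusted by Benjamini-Hochberg over all of them with a threshold of 0.05. Members were the probe sets with exactly 1 symbol in the platform annotation, and all 9 gene IDs matched a RefSeq gene table (GRCm38.p6), used for chromosomes. Named were all member probe sets and, of a written NAD pathway list, genes with an unadjusted p under 0.05. The remaining sirtuins, Nnt, Nnmt and single cell markers were named after their values were seen. Members and lists were chosen with earlier results of these data known. The fit was tested on simulated data. By a check on deviations from the genotype means, replicates 2 and 4 were most alike to the same number in the other genotype, and replicates 1 and 3 were not.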

Additional observations from a re-analysis of the deposited data

Results flagged for a closer look

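Within groups of 4 livers, 58 groups of values were screened for a liver far from the others, and chance flags about 1 in 20 groups. Wild-type replicate 4 was low at the dim Sirt5 probe set 1432105_at, at 2.22 where the next value was 2.40. Wild-type replicate 4 was high at Slc25a51 1433816_at, at 8.70 where the next value was 8.50, and still lay below every heterozygous liver.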

How the results depend on the processing

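No member passed the threshold under any of the 19 alternatives (11 other settings and 8 with 1 liver left out). Of the 19 probe sets 10 kept their direction under all alternatives fitted for them, among them all of Nampt and Nmnat1, 1 of 2 Nadk, 2 of 3 Sirt5 and 2 of 4 Parp1 probe sets. The count over all probe sets, 16, was 9 with a mean signal above 5 only and with the brightest probe set of each gene, 4 with the mean of each gene's probe sets, 25 with the replicate block, 0 with the clock score as covariate and 42 with the 3′ minus 5′ control signal as covariate, and 5 to 21 when 1 liver was left out (leaving out heterozygous replicate 1 gave 5, heterozygous replicate 3 gave 7, wild-type replicate 1 gave 7, replicate 2 gave 9 and replicate 3 gave 6). The count of member probe sets with an unadjusted p under 0.05, 6, was 3 with cross-hybridising kinds left out, 2 with the brightest probe set of each gene, 3 with the mean of each gene's probe sets (both of the last test 9 genes), 0 with the clock score, and 4 to 10 with 1 liver left out. The count without overlap, 2, was 1 with cross-hybridising kinds left out and with the brightest probe set of each gene, and 2 to 8 with 1 liver left out (leaving out heterozygous replicate 2 gave 8, wild-type replicate 4 gave 6 and wild-type replicate 3 gave 4). Fewer probe sets enter with cross-hybridising kinds left out and with 1 value for each gene, and the cause of the other shifts was not tested. Shares of all probe sets for these 2 member counts were taken only in the main fit and without heterozygous replicate 2 or wild-type replicate 4. The member counts under the other settings therefore have no background beside them.

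With the clock score as covariate the sign turned for Nadsyn1 (-0.056), Qprt 1418836_at (0.37) and 1418837_at (0.32), Nadk 1416249_at (0.23), Sirt1 (-0.28), Sirt5 1432105_at (0.11), and Parp1 1422502_at (0.0037) and 1435368_a_at (0.0012). It also turned for Sirt3 with array weights (0.016) and for Qprt 1418836_at with the 3′ minus 5′ covariate (0.051). With 1 liver left out the ranges that crossed 0 were -0.15 to 0.099 and -0.18 to 0.044 for Qprt, -0.12 to 0.048 for Nadk 1416249_at and -0.087 to 0.041 for Sirt3. The replicate block gave adjusted p from 0.202 to 0.992 for the members. Same-numbered livers deviated together with r of -0.07, 0.22, 0.0049 and 0.23. The labels give no pairing beyond the number itself, so the numbers were not used as pairs in the main fit.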

Other observations

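Nnt encodes the mitochondrial transhydrogenase that passes electrons between NAD and NADP, and is known to carry a deletion in the C57BL/6J substrain. It was singled out after its values were seen. Heterozygous replicate 1 read 7.42 at 1416105_at where the other 7 livers lay between 8.41 and 9.12, and 6.92 at 1456573_x_at where the others lay between 8.30 and 9.13. The genotype differences were -0.06 ± 0.32 and -0.16 ± 0.40 (SE), with adjusted p of 0.976 and 0.946 (limma). Which C57BL/6 substrain was used is not given in the labels.

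Nnmt, which methylates nicotinamide and so removes it from salvage, spread from 9.23 to 10.83 over the 8 livers, with the lowest value in wild-type replicate 2 and the highest in heterozygous replicate 2, and a genotype difference of 0.21 ± 0.32 (SE). The Slc25a51 probe set 1427425_at spread from 4.55 in wild-type replicate 4 to 7.60 in heterozygous replicate 2, while 1433816_at of the same gene stayed between 8.46 and 9.10.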
